A study of Mus musculus with 51 samples.

Results

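The clustered histone genes were taken as all protein-coding genes on chromosomes 1 to 19 of the mm10 build whose GENCODE M21 symbol begins with Hist1h, Hist2h, Hist3h or Hist4h. There were 67 such genes of 20807 autosomal protein-coding genes: 6 of class H1, 18 of H2A, 18 of H2B, 12 of H3 and 13 of H4. Of these, 54 lay in the Hist1 cluster on chromosome 13, between transcription start sites (TSSs) at 21716143 and 23934462, 10 in Hist2 on chromosome 3, 2 in Hist3 on chromosome 11 and 1, Hist4h4, on chromosome 6. The rule uses names and positions only, and no ChIP-Seq value.

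The study sorted nuclei of adult wild-type C57BL/6J testis by flow cytometry into 5 stages of meiotic prophase I. Leptonema came from a sort on SCP3 and STRA8, and zygonema, early pachynema, late pachynema and diplonema from a separate sort that used the testis linker histone H1t and the synapsis protein SCP1. Sonicated chromatin was immunoprecipitated with an H3K4me3 antibody (EpiCypher) in experiments 1 and 2 of every stage, with an Abcam antibody that also binds H3K4me2 (here H3K4me2/3) in experiment 2, and for H3K9ac in experiment 1, and each of these 20 libraries has a deposited peak list. The labels give the 10 H3K4me3 libraries as 2 experiments a stage but no animals, so replicate spread may be technical, and the other 31 samples were not analysed here.

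Replication-dependent histone genes supply the core and linker histones that package newly copied DNA in S phase, and they are transcribed in tandem arrays gathered in a nuclear body around NPAT. Their mRNAs end in a stem-loop bound by SLBP in place of a poly(A) tail. Meiotic prophase follows the last S phase of the germ line, and in it spermatocytes begin to use testis histones, among them H1t, encoded by Hist1h1t, and TH2A and TH2B, encoded by Hist1h2aa and Hist1h2ba. H3K4me3 and H3K9ac mark active promoters.

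A gene was counted as called in a list when a peak overlapped the 500 bp on either side of one of its TSSs by at least 1 bp, and its width is that of the widest such peak. The lists hold positions only, with no score or read count, so depth per library is unknown, and a site without a peak may carry the mark below the caller's threshold. The lists held from 516 to 30943 peaks, and no 2 of them were identical. The gene of the sort marker Sycp3 was called in all 10 H3K4me3 libraries and Stra8 in both leptonema libraries and no other.

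Many of these genes face a partner of the opposite strand across a short shared promoter. There were 13 such pairs with TSSs under 1000 bp apart, 12 of them an H2A gene beside an H2B gene, at a median of 268 bp and a range of 176 to 660 bp. The 9 pairs with any call were called together in 94 cases of pair and list and singly in 2, so a call at an H2A gene and at its H2B partner is mostly the same peak. Windows that overlap merged the 67 genes into 54 regions. Sequences upstream of 6 genes, from the RefSeq promoter table (GRCm38.p6, the coordinates of mm10), are shown for the promoters the results turn on. They run 5′ to 3′ on the strand of the named gene up to the base before its RefSeq start. Capitals mark the TATA box TATAAA, the CCAAT box CCAAT, the octamer ATTTGCAT and the H1 box AAACACA, searched on both strands, with none overlapping another.

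The H1t gene, Hist1h1t (chr13:23695561-23695810, plus strand):
Hist1h1t: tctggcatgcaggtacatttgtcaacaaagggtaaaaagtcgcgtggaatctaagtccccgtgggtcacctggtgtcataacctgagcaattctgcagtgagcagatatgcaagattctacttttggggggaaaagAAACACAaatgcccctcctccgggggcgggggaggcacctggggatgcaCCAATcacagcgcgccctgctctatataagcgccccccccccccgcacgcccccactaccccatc
The promoter shared by the testis genes Hist1h2aa and Hist1h2ba (chr13:23934187-23934436, plus strand, read towards Hist1h2aa):
Hist1h2aa: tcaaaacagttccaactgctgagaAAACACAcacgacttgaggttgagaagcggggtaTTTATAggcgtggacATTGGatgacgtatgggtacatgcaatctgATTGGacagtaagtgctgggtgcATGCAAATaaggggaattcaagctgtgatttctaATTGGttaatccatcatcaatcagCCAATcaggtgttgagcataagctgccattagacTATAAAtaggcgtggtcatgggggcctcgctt
The promoter shared by Hist2h2ac and Hist2h2be (chr3:96220881-96221118, minus strand, read towards Hist2h2ac), whose peaks were widest in the later stages:
Hist2h2ac: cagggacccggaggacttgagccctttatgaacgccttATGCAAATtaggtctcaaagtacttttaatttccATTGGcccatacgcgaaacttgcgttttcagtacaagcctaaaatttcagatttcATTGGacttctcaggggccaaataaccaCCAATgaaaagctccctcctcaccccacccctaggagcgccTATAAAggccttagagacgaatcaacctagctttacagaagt
Hist1h4a (chr13:23761250-23761499, minus strand), the histone gene with the lowest p of the comparison of stages:
Hist1h4a: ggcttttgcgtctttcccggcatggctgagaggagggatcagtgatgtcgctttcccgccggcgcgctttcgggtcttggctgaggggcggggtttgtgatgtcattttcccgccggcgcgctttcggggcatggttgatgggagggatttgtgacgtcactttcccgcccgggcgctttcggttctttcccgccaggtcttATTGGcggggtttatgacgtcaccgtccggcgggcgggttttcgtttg
The promoter shared by Hist1h2ag and Hist1h2bj (chr13:22042948-22043197, plus strand, read towards Hist1h2bj), called for H3K4me3 in experiment 2 and not in experiment 1:
Hist1h2bj: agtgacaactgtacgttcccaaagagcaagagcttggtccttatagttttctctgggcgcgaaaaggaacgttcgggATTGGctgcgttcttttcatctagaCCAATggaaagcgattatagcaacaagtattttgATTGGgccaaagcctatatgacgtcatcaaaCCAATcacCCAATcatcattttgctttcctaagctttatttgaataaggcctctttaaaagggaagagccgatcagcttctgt
Hist1h2bq (chr13:21810200-21810449, minus strand), never called, whose promoter in the table is identical to that of Hist1h2br at 300 of 300 bases:
Hist1h2bq: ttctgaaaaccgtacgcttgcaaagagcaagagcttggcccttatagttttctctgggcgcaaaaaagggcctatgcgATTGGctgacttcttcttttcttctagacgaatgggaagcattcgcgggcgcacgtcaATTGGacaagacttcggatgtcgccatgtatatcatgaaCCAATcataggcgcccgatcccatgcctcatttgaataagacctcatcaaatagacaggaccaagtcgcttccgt

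The promoter table, which covers 250 bases before and 50 after each start, matched 62 of the 67 genes by Entrez identifier. CCAAT was present in 53 of these 62 promoters (85.5%), against 37.3% of the 31396 promoters of the table on chromosomes 1 to 19. It was in every promoter of H1, H2A, H2B and H3 genes and in 3 of 12 of H4 genes. TATAAA was in 35 (56.5%, against 13.6% of all promoters) and the octamer in 14 (22.6%, against 1.75%). The octamer promoters were 7 of 18 H2A and 7 of 16 H2B genes. The H1 box was in 5 of 6 H1 promoters and 9 of all 62, against 7.28% of all promoters. In the sequence of Hist1h1t the H1 box began at position -114 and CCAAT at -65 from the start. The shared testis promoter held both a TATA box and CCAAT boxes towards each gene, with the octamer between them. Of the 42 promoters of genes called in a list, 29 held TATAAA and 13 the octamer, and of the 20 of genes never called 6 and 1 did. The calls are those at GENCODE TSSs. Hist1h1d, with TATAAA and counted as never called, was called in 3 lists at its RefSeq start. The median number of CpG dinucleotides per 300 bases was 9.5 at genes called in a list, 14 at genes never called and 7 over all promoters. The never-called promoters include those of the 10 genes, named below, with largely repeated windows and uncertain calls. Their CpG counts ran from 12 to 41, and those of the other never-called genes from 3 to 18. The motif and CpG contrasts between called and never-called genes thus carry this limit. A match is a description of letters, not evidence of binding.

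More histone genes had an H3K4me3 peak in experiment 2 than in experiment 1 at every stage. In experiment 1, 4 of the 67 genes were called in leptonema (6.0%, against 39.2% of all genes), 2 in zygonema (against 36.9%), 1 in early pachynema (against 34%), 6 in late pachynema (against 26.8%) and 9 in diplonema (13.4%, against 29.3%). In experiment 2, 42 were called in leptonema (62.7%, against 47.1% of all genes), 32 in zygonema (47.8%, against 35.9%), 3 in early pachynema (4.5%, against 25.5%), 17 in late pachynema (25.4%, against 40.3%) and 32 in diplonema (47.8%, against 46.8%). The share was thus below that of all genes in every library of experiment 1 and above it in 3 of the 5 of experiment 2. Over 5 libraries each, the mean was 6.57% ± 4.79 (SD, n = 5) of histone genes in experiment 1 and 37.6% ± 22.8 (SD, n = 5) in experiment 2, and for all genes 33.2% ± 5.18 (SD, n = 5) and 39.1% ± 8.93 (SD, n = 5). The exact 95% binomial intervals of the 2 leptonema shares were 1.65 to 14.6% and 50.0 to 74.2%. They treat genes as independent, while the 42 calls of experiment 2 rest on at most 33 peaks, so they may be too narrow. They hold no spread between libraries and do not test the difference.

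**Figure D1:**
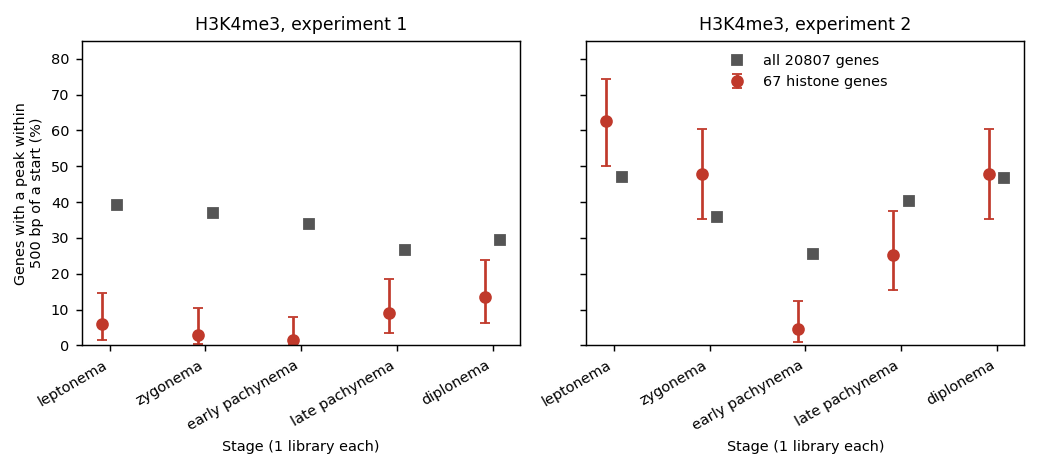
Share of the 67 histone genes (circles, with exact 95% binomial intervals) and of all 20807 genes (squares) with an H3K4me3 peak within 500 bp of a TSS, by stage, in experiment 1 (left) and experiment 2 (right). In experiment 1 the histone genes stay at 1.49 to 13.4%, under all genes at every stage, and in experiment 2 they range from 4.48 to 62.7%. The intervals treat genes as independent and hold no spread between libraries.

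The longer list of a stage did not always hold more histone calls. In leptonema, late pachynema and diplonema the list of experiment 2 was the longer, with 13095 against 9528, 9124 against 5189 and 12071 against 6645 peaks, and held more. In zygonema the list of experiment 1 was the longer, with 15699 peaks against 11314, and held 2 histone genes against 32. In early pachynema the list of experiment 1 also was the longer, with 6647 against 4883 peaks, and held 1 against 3. With lists cut to equal length, the difference of means between experiments was 14.9 in place of 31.0 percentage points. The study's table of libraries gives less starting chromatin for the leptonema, zygonema, late pachynema and diplonema H3K4me3 libraries of experiment 2 than for the other H3K4me3 libraries, and the part of this in the result was not tested.

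Gene by gene, 42 of the 44 histone genes called in any H3K4me3 library were called in more libraries of experiment 2 than of experiment 1, and none in more of experiment 1. Among all genes, 5067 had more calls in experiment 2, 1203 more in experiment 1 and 5218 as many in both. A call in 3 or more libraries of experiment 2 and in none of experiment 1 was held by 18 histone genes (26.9%), against 1.47% of all genes (305 of 20807). Both genes of a divergent pair count here though they share a peak, so the sites are fewer than the genes. No autosomal protein-coding gene had the opposite pattern. The 18 included the H2A/H2B pairs Hist1h2ag/Hist1h2bj, Hist1h2ah/Hist1h2bk and Hist1h2ad/Hist1h2bf and the H3 gene Hist1h3d, core histones of the nucleosome. At Hist1h2ag and Hist1h2bj, whose promoter is printed above, the shared peak was 1222 bp wide in leptonema, 465 bp in zygonema, 184 bp in late pachynema and 274 bp in diplonema of experiment 2, and no H3K4me3 peak was called in early pachynema of experiment 2 or in experiment 1. The same promoter had an H3K4me2/3 peak at every stage, of 1305 bp in early pachynema, and H3K9ac peaks of 279 bp in leptonema and 800 bp in zygonema of experiment 1.

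In an exact permutation test of calls per gene, 5 libraries of experiment 2 against 5 of experiment 1, no gene passed an adjusted p of 0.05 (Benjamini-Hochberg over 7692 genes whose calls varied, smallest adjusted p = 1). At an unadjusted p under 0.05, 7 of the 44 histone genes tested were higher in experiment 2, against 0.754% of all genes tested, and none was higher in experiment 1, against 0.013%. The 7 were Hist1h2ad, Hist1h2ag, Hist1h2ah, Hist1h2bf, Hist1h2bj, Hist1h2bk and Hist1h3d, each with 4 calls against 0 (unadjusted p = 0.0476, exact permutation test). All but Hist1h3d are partners in divergent pairs that share a peak, so they are fewer sites than genes. This test was chosen after the split was seen. With an overlap of at least 250 bp, or with lists of equal length, 0 of the histone genes reached that p, and the late pachynema peaks at the 7 genes were 151 to 184 bp wide.

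**Figure D2:**
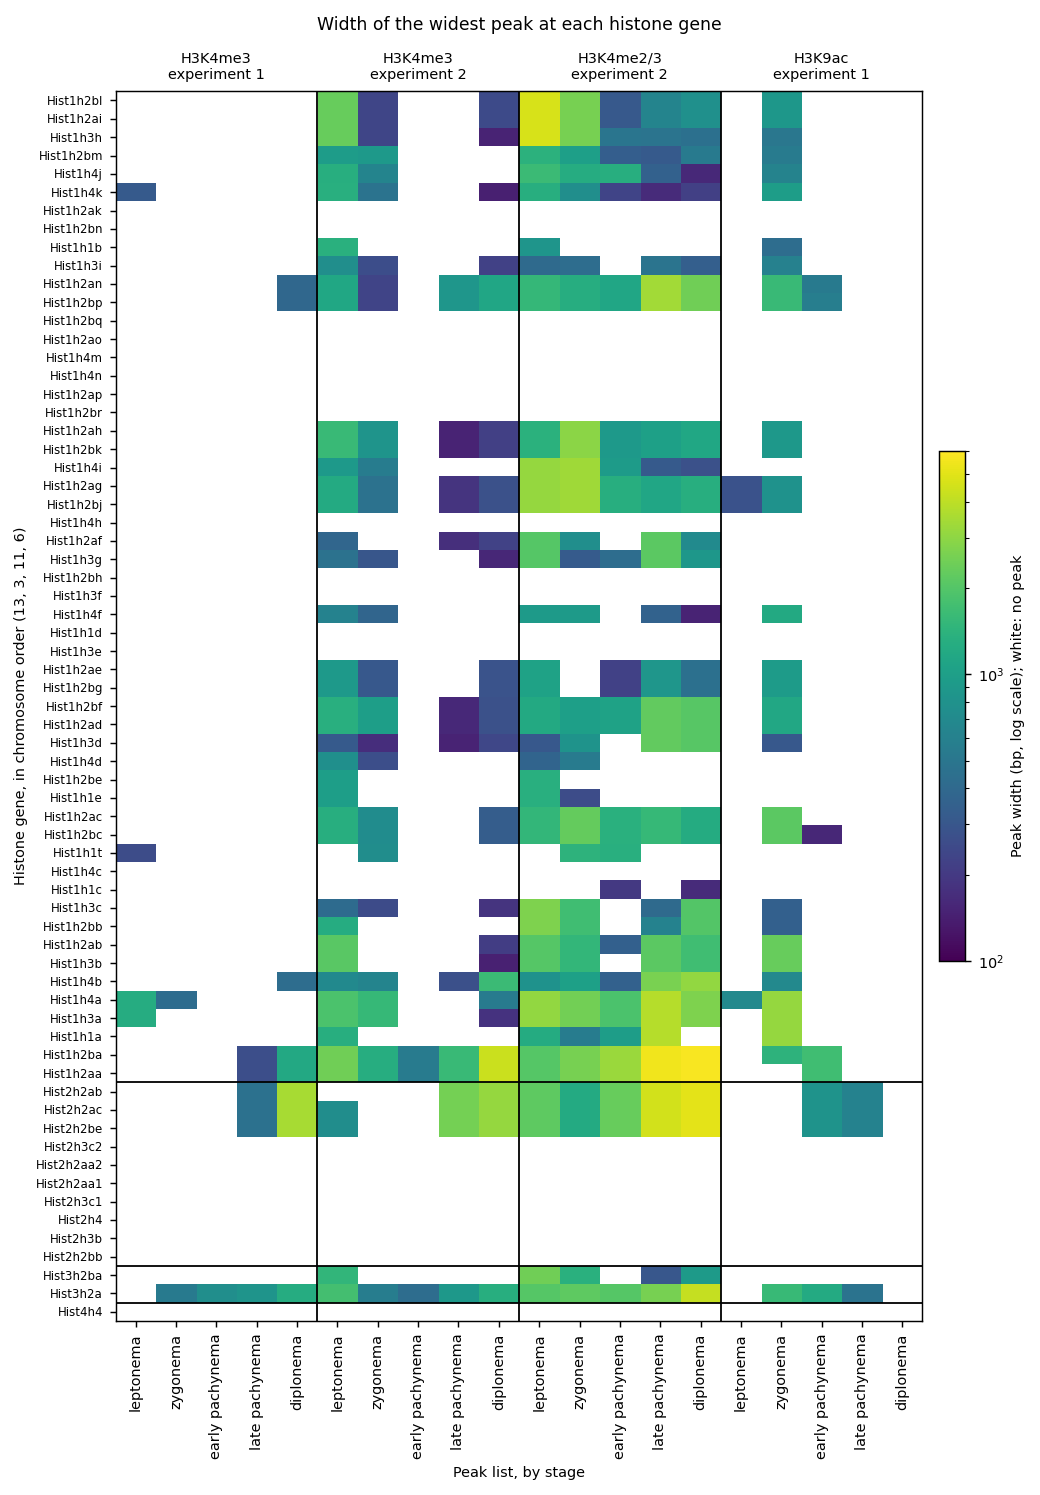
Width of the widest peak (colour, bp, log scale) at each of the 67 histone genes (rows, in chromosome order) in the 20 lists (columns, by antibody, experiment and stage), with white where no peak was called. Most rows of the Hist1 cluster are coloured in experiment 2 and under H3K4me2/3 and white in H3K4me3 experiment 1, and 22 rows are white throughout.

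The question of the stage course was asked as leptonema and zygonema (early) against the 3 later stages. The mean share of histone genes called was 29.9% ± 30.0 (SD, n = 4) in the early and 16.9% ± 17.3 (SD, n = 6) in the later libraries, a difference of 12.9 percentage points, which is smaller than the pooled SD of 25.8 between the 2 libraries of a stage. Within experiment 1 the early share was lower than the later, 4.48% against 7.96%, and within experiment 2 it was higher, 55.2% against 25.9%. The direction of the pooled value was therefore not shared by the experiments. Without the leptonema library of experiment 2, the pooled difference was 1.99 percentage points.

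No histone gene passed the exact permutation test of early against later stages (4 against 6 libraries, 210 splits) after Benjamini-Hochberg adjustment over 7692 genes, and neither did any other gene (smallest adjusted p = 0.251). At an unadjusted p under 0.05, 1 of 44 histone genes tested was higher early, against 5.55% of all genes tested, and none was higher later, against 1.55%. That gene was Hist1h4a, which encodes H4. Its peak was 1271 and 1870 bp wide in the leptonema libraries and 425 and 1542 bp in the zygonema libraries of experiments 1 and 2, was absent from 5 of the 6 later libraries and was 546 bp wide in diplonema of experiment 2 (unadjusted p = 0.0476, adjusted p = 0.621, exact permutation test). For leptonema against the other stages (2 against 8 libraries, 45 splits) the smallest adjusted p was 0.76, and 0 of 44 histone genes had an unadjusted p under 0.05, against 2.74% of all genes tested higher and 0.182% lower in leptonema. With 45 splits, an adjusted p under 0.05 needed a large part of all genes at the smallest p, so its absence shows little.

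Sertoli and spermatogonial markers were called most in leptonema of experiment 2, the library with the most histone calls and the highest share of all genes (47.1%). Zygonema and diplonema of experiment 2 each had 32 histone genes called. Zygonema had 1 Sertoli and 1 spermatogonial gene called, and diplonema 0 and 2. Of the 5 Sertoli cell genes found, 3 (Sox9, Gata4 and Wt1) were called in leptonema of experiment 2, 1 (Wt1) in zygonema of experiment 2 and 0 in each of the other 8 H3K4me3 libraries. Of 8 spermatogonial genes, 4 were called in leptonema of experiment 2, 3 in leptonema of experiment 1 and 1 or 2 in each other library. Of 5 Leydig cell genes only Insl3 was called, in diplonema of experiment 2. The 4 blood and endothelial and 5 round spermatid genes were at 0 in all 10 libraries. The gates took SCP3-positive nuclei with the DNA content of primary spermatocytes. The study's table of libraries lists leptonema as the purest sort. For the H3K4me3 libraries it gives experiment 2 as less pure than experiment 1 in leptonema, zygonema, late pachynema and diplonema. In early pachynema it gives experiment 2 as the purer. The part of purity, or of somatic or spermatogonial cells, in the histone result was not tested.

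Under the H3K4me2/3 antibody, whose 5 libraries were all of experiment 2, the histone genes were called about as often as all genes at every stage. Calls were 43 of 67 in leptonema (64.2%, against 65.7% of all genes), 40 in zygonema (against 60.5%), 33 in early pachynema (49.3%, against 54.6%), 39 in late pachynema (against 56.4%) and 39 in diplonema (58.2%, against 54.3%). The mean was 57.9% ± 5.42 (SD, n = 5 stages), against 58.3% ± 4.81 (SD, n = 5 stages) of all genes. In early pachynema of experiment 2 the antibodies parted most, with 3 histone genes called for H3K4me3 and 33 for H3K4me2/3, or 9.09% of the latter, while for all genes the shared calls were 46.7% of the H3K4me2/3 calls. By the study's table of libraries, early pachynema was the stage at which the antibodies were used on chromatin of different purity and amount, so this pair is not matched, and the part of that was not tested. In leptonema of experiment 2, 42 of the 43 histone genes called by the Abcam antibody were also called for H3K4me3 (97.7%, against 71.4% for all genes).

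For H3K9ac, with no replicate, 3 histone genes were called in leptonema (4.48%, against 14.9% of all genes), 32 in zygonema (47.8%, against 41.9%), 9 in early pachynema (13.4%, against 35.7%), 4 in late pachynema (5.97%, against 8.36%) and 0 in diplonema, which allows up to 5.36% by the exact interval (against 2.08%). The zygonema list, of experiment 1, held 32 histone genes where the H3K4me3 list of the same stage and experiment held 2. Both of those were among the 32, and 27 of the 32 were also among the 32 called for H3K4me3 in zygonema of experiment 2, 84.4% of each list. For all genes the calls shared by these 2 lists were 80.9% of the H3K9ac calls and 94.4% of the H3K4me3 calls. The 5 histone genes called for H3K4me3 in zygonema of experiment 2 and not for H3K9ac were Hist1h1t, Hist1h2aa, Hist1h3g, Hist1h4d and Hist1h4i. For all genes, the H3K4me3 calls of zygonema experiment 1 covered 84.7% of the H3K9ac calls, against 6.25% for the histone genes. The antibody label of these samples reads H3K4me3, while their titles read H3K9ac and the methods list the labelled product as the H3K9ac antibody, so the mark is given as H3K9ac.

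Median peak widths at the called histone genes differed between stages in experiment 2, and those of experiment 1, over fewer genes, took another course. In experiment 2 the median width over the called histone genes was 1277 bp in leptonema, 516 bp in zygonema, 553 bp in early pachynema (3 genes), 271 bp in late pachynema and 276 bp in diplonema. In experiment 1 it was 796 bp over 4 genes in leptonema, 480 bp over 2 in zygonema, 761 bp at 1 in early pachynema, 464 bp over 6 in late pachynema and 1180 bp over 9 in diplonema, so the diplonema median was the widest there. The 9 genes of that library were also called in diplonema of experiment 2. Their peaks were 393 to 3500 bp wide in experiment 1 and 1129 to 4351 bp in experiment 2. The diplonema medians of the experiments thus cover different sets of genes. In experiment 2 the medians over all called genes were 827, 581, 401, 655 and 939 bp. As a percentile of width within its own list, the median histone peak stood at 83.5 in leptonema and at 15.4 in diplonema of experiment 2, and at 56.1 and 78.8 in experiment 1. That of all called genes was 61.2 and 59.5 in experiment 2. In diplonema of experiment 2, 20 of the 32 called histone genes (62.5%) had a peak under 300 bp, against 10.3% of all called genes, and in leptonema 0 of 42 did.

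The same genes can be followed between these 2 libraries. Of 31 histone genes called in both leptonema and diplonema of experiment 2, 26 had the narrower peak in diplonema, with a median diplonema-to-leptonema ratio of 0.292. Of 8308 genes called in both, 43.4% were narrower in diplonema, with a median ratio of 1.1. The 5 histone genes with the wider peak in diplonema were the testis genes Hist1h2aa and Hist1h2ba and Hist1h4b, Hist2h2ac and Hist2h2be. From leptonema to zygonema all 31 histone genes called in both were narrower, against 87.4% of all genes. Under H3K4me2/3, 26 of 38 histone genes called in both were narrower in diplonema (median ratio 0.83), against 37.0% of all genes (median ratio 1.21). From leptonema to late pachynema under H3K4me2/3, 17 of 39 were narrower and 22 wider (median ratio 1.04), against 39.1% of all genes narrower (median ratio 1.15). There was 1 library per stage in each of these comparisons, so they have no replicate check, and few histone genes were called in experiment 1 to set beside them.

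**Figure D3:**
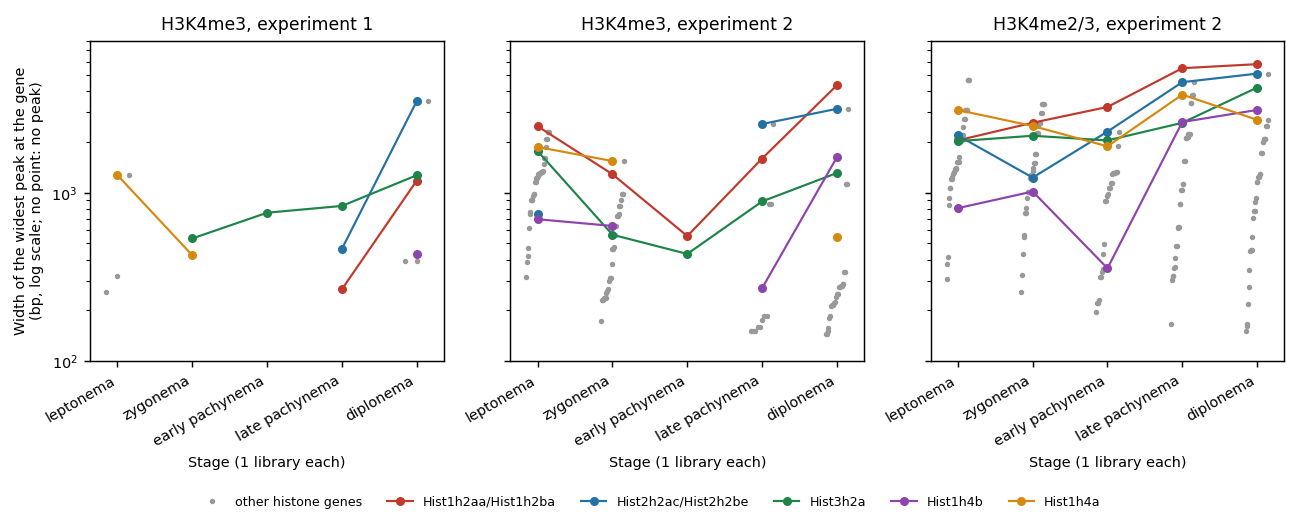
Width of the widest peak (bp, log scale) at histone genes by stage for H3K4me3 experiment 1 (left), H3K4me3 experiment 2 (middle) and H3K4me2/3 experiment 2 (right), 1 library a stage. Lines follow 5 promoters, broken where no peak was called, and grey points are the other called histone genes. In experiment 2 the grey points move from near 1277 bp in leptonema to near 276 bp in diplonema, while Hist1h2aa/Hist1h2ba reach 4351 bp.

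The 3 testis histone genes did not share one course. Hist1h2aa and Hist1h2ba, which encode TH2A and TH2B from one divergent promoter with TSSs 306 bp apart, were each called in 7 of the 10 H3K4me3 libraries, by the same peak. No peak was called in leptonema, zygonema or early pachynema of experiment 1, where late pachynema had 267 bp and diplonema 1180 bp. In experiment 2 the widths were 2482 bp in leptonema, 1288 bp in zygonema, 553 bp in early pachynema, 1597 bp in late pachynema and 4351 bp in diplonema. The peak was thus wider in diplonema than in late pachynema in both experiments, and in experiment 2 the early pachynema peak was the narrowest. Under H3K4me2/3 the widths were 2047, 2605, 3233, 5495 and 5806 bp from leptonema to diplonema. This was the widest H3K4me3 peak at any histone gene in leptonema and diplonema of experiment 2. For H3K9ac both were called in early pachynema (1697 bp), and Hist1h2ba alone in zygonema (1406 bp). Early against later stages gave an unadjusted p of 0.5 (adjusted p = 0.84, exact permutation test).

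Hist1h1t, the gene of H1t, was called for H3K4me3 in leptonema of experiment 1 (258 bp) and zygonema of experiment 2 (747 bp) and in none of the 6 later libraries. Under H3K4me2/3 it was called in zygonema (1412 bp) and early pachynema (1319 bp), and for H3K9ac in no list. The protein was the sort marker that separated late pachynema and diplonema from the earlier nuclei, and in neither of those stages did any antibody give a call at the gene. In the early-against-later test its unadjusted p was 0.133 (adjusted p = 0.678, exact permutation test). At no stage was the gene called in both H3K4me3 libraries.

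Over genes and libraries, 16 of 30 testis calls (53.3%) and 132 of 640 calls at the other 64 genes (20.6%) were positive for H3K4me3. The share was 33.3% against 5.31% in experiment 1 and 73.3% against 35.9% in experiment 2. Under H3K4me2/3 it was 80.0% against 56.9% and for H3K9ac 20.0% against 14.1%. The higher testis share was that of the promoter of Hist1h2aa and Hist1h2ba, each called in 7 of the 10 H3K4me3 libraries. Hist1h1t was called in 2 of the 10, in 2 of the 5 H3K4me2/3 lists and in 0 of the 5 H3K9ac lists. The other 64 genes include the 10 with largely repeated windows, none of them called. With 3 testis genes, of which 2 share a peak, these are descriptions.

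Besides the testis pair, a few H2A, H2B and H4 genes carried the calls of the later stages that the experiments shared. All 6 histone genes called in late pachynema of experiment 1 were among the 17 of experiment 2, and all 9 called in diplonema of experiment 1 were among the 32 of experiment 2. For all genes, 97.6% of the late pachynema and 99.6% of the diplonema calls of experiment 1 were also made in experiment 2. Such an overlap is thus not particular to the histone genes. The 6 histone genes of late pachynema were Hist1h2aa, Hist1h2ba, Hist2h2ab, Hist2h2ac, Hist2h2be and Hist3h2a, and diplonema added Hist1h2an, Hist1h2bp and Hist1h4b. At Hist2h2ac and Hist2h2be the H3K4me3 peak was 464 bp in late pachynema and 3500 bp in diplonema of experiment 1 and 2561 and 3152 bp in experiment 2. In the 6 libraries of the 3 earlier stages it was called once, at 749 bp in leptonema of experiment 2. Their neighbour Hist2h2ab lay under the same late peak and was not called in leptonema, zygonema or early pachynema. Under H3K4me2/3 the 3 genes were called at every stage, at 2189, 1230, 2309, 4538 and 5101 bp from leptonema to diplonema. In the test of early against later stages, Hist2h2ac had an unadjusted p of 0.524 (adjusted p = 0.84, exact permutation test).

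Hist3h2a, an H2A gene on chromosome 11, was called in 9 of 10 H3K4me3 libraries, the most of any histone gene, and in 17 of the 20 lists. Its H3K4me3 widths were none, 535, 761, 835 and 1270 bp from leptonema to diplonema in experiment 1 and 1767, 563, 433, 888 and 1310 bp in experiment 2. The 2 libraries of a stage differed in width most in leptonema, where experiment 1 had no peak, and next in early pachynema. Its neighbour Hist3h2ba, an H2B gene, was called for H3K4me3 in leptonema of experiment 2 alone (1485 bp). At Hist1h4b, an H4 gene, the widths were 433 bp in diplonema of experiment 1 and 696, 635, 271 and 1625 bp in leptonema, zygonema, late pachynema and diplonema of experiment 2. At the pair Hist1h2an and Hist1h2bp they were 393 bp in diplonema of experiment 1 and 1152, 232, 853 and 1129 bp at the same 4 stages of experiment 2. No histone gene had a peak in all 10 H3K4me3 libraries, while 3796 genes (18.2%) did.

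By class, H2A genes were called most, and H1 or H3 genes least, by setting. Over the 10 H3K4me3 libraries 31.1% of H2A, 23.9% of H2B, 18.3% of H3, 16.9% of H4 and 8.33% of H1 gene-by-library cases had a peak, against 36.2% for all genes. In experiment 1 the shares were 12.2%, 5.56%, 1.67%, 6.15% and 3.33%, and in experiment 2 50.0%, 42.2%, 35.0%, 27.7% and 13.3%, in the same order of classes. Under H3K4me2/3 they were 70.0%, 64.4%, 51.7%, 47.7% and 36.7%, and for H3K9ac 20.0%, 17.8%, 10.0%, 9.23% and 6.67%. H1 was thus lowest in experiment 2, under H3K4me2/3 and for H3K9ac, and H3 was lowest in experiment 1, with 1 case. Over the 10 H3K4me3 libraries H3 was also lowest with the wider peaks of each list (5.00% against 6.67% for H1) and with lists of equal length (4.17% against 6.67%). The pooled SD between the 2 libraries of a stage was 30.3 percentage points at the H2A genes. Both classes were read in the same libraries, so this SD does not measure the spread of the gap between H2A and H1. The H2A share was above the H1 share in every H3K4me3 library but leptonema of experiment 1 (0% against 16.7%). The gap between classes was not tested. The H3 genes had the narrowest H3K4me3 peaks, at a median of 257.5 bp over 22 cases, and the H2B genes had 902 bp over 43.

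**Figure D4:**
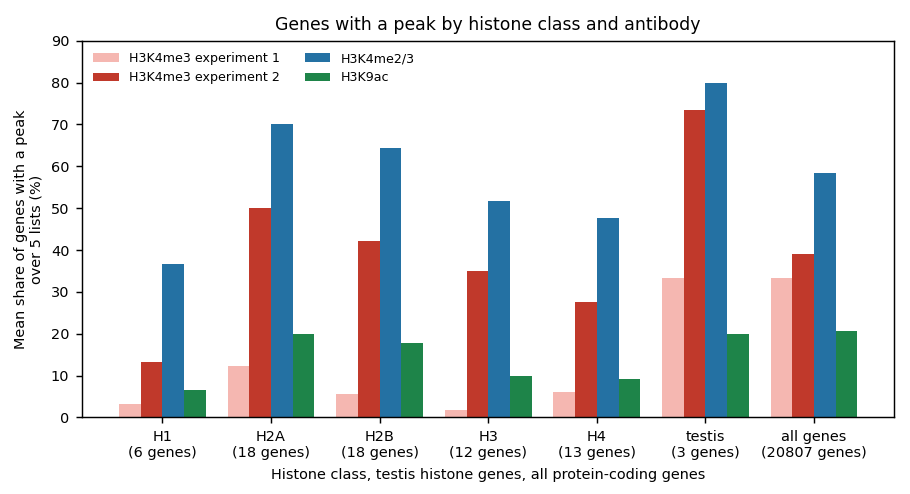
Mean share of genes with a peak over 5 lists (bars) by histone class, for the 3 testis histone genes and for all 20807 genes, in H3K4me3 experiment 1 and 2, H3K4me2/3 and H3K9ac. H2A is the highest of the 5 classes for each antibody, and every class is lower in H3K4me3 experiment 1 than in experiment 2.

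The H1 genes encode the linker histones, and each was called rarely. Hist1h1b was called for H3K4me3 in leptonema of experiment 2 alone (1354 bp), as were Hist1h1a (1294 bp) and Hist1h1e (985 bp). Hist1h1a was further called under H3K4me2/3 at 4 stages, at 1245, 559, 980 and 3828 bp from leptonema to late pachynema, and for H3K9ac in zygonema (3122 bp). The wide late pachynema and H3K9ac peaks also covered Hist1h4a and Hist1h3a, on the same stretch. Hist1h1c had no H3K4me3 call and 2 narrow H3K4me2/3 calls, of 197 bp in early pachynema and 166 bp in diplonema. Hist1h1d had no call in any list at its GENCODE TSS. Its RefSeq start lies 1770 bp from that TSS, and windows there were called in 3 of the 20 lists, 1 of them H3K4me3. For Hist1h2be, an H2B gene with several annotated starts, the only H3K4me3 call at a GENCODE TSS was the 985 bp leptonema peak of experiment 2 that it shared with Hist1h1e. A further RefSeq start of Hist1h2be lies 35108 bp away from those TSSs. Windows at its RefSeq starts were called in 5 of the 20 lists, against 2 at its GENCODE TSSs.

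No list held a peak at 22 of the 67 histone genes (32.8%, against 31.4% of all genes). They were 5 of 18 H2A, 5 of 18 H2B, 5 of 12 H3, 6 of 13 H4 and 1 of 6 H1 genes. Some members have near-identical copies. Every 50-base word of each 1000 bp window around a TSS was looked up in the rest of the genome, on both strands. All 10 histone genes with 60% or more of their words found elsewhere were among the 22. They were Hist1h2ao, Hist1h2ap, Hist1h2bq and Hist1h2br, whose windows were repeated in full, Hist1h4m and Hist1h4n (94.2% and 95.2%), Hist2h3c1 and Hist2h3c2 (both 94.7%) and Hist2h2aa1 and Hist2h2aa2 (64.2% and 70.3%). Calls at these 10 are uncertain. The methods state a mapping quality filter and primary alignments for the signal estimates but not for the peak lists, and the part of repeated sequence in the missing calls was not tested. Between 30 and 60%, 4 of 23 genes had no call, between 10 and 30% 3 of 23, and under 10% 5 of 11.

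The last 5, with nearly unique windows, were Hist1h1d, Hist1h3f, Hist2h2bb, Hist2h4 and Hist4h4. Hist4h4, the single-gene H4 locus on chromosome 6, had no repeated word, and its nearest peak in any list was 2826 bp away. Hist2h4 had 1.68% of words repeated and its nearest peak was 14410 bp away, and Hist2h2bb none and 7969 bp. The 7 Hist2 genes from Hist2h3c2 to Hist2h2bb, over 31626 bp (chromosome 3, 96238627 to 96270252), lay in a stretch without a peak in any of the 20 lists, while Hist2h2ab, Hist2h2ac and Hist2h2be of the same cluster were called in 11, 12 and 12 lists. The stretch from Hist1h2bq to Hist1h2br, with 6 genes over 24601 bp, held 1 peak in 1 list. Of the 62 genes with a RefSeq start, 19 were never called at that start, and Hist1h1d was the one gene called there and not at its GENCODE TSS.

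**Figure D5:**
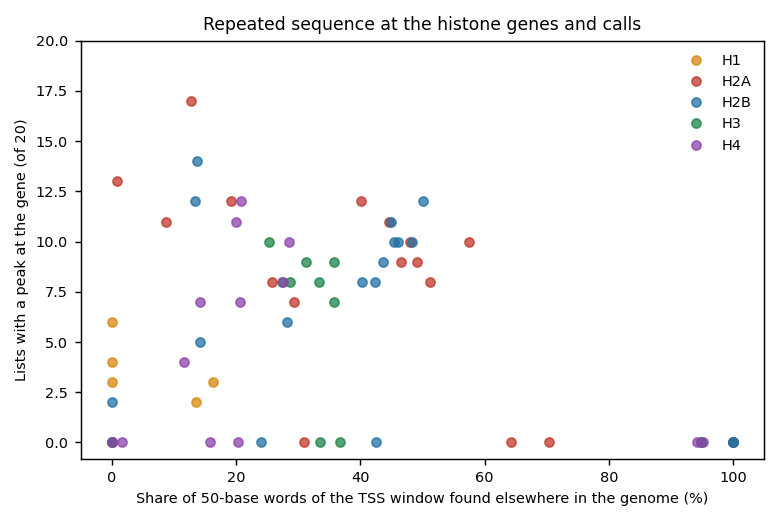
Share of 50-base words of each histone gene's 1000 bp TSS window that occur elsewhere in the genome (horizontal axis, %) against the number of the 20 lists with a peak at the gene (vertical axis), with 1 point a gene coloured by class. All 10 genes past 60% lie at 0 lists, and 5 of the 11 genes under 10% also do.

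Most genes around the Hist1 cluster and of histone supply were called in all or none of the H3K4me3 libraries, which leaves little room for a difference between experiments. Among the 49 non-histone protein-coding genes within the Hist1 span, 3 to 5 were called in each H3K4me3 library (6.12 to 10.2%, against 25.5 to 47.1% of all genes), 44 were called in none of the 10, and 2 had more calls in experiment 2 and 0 in experiment 1. Of 14 replication-independent histone variant genes, which are transcribed outside S phase, H3f3a, H3f3b, H2afx, H2afz and H1f0 were called in all 10 libraries, and the mean share was 60.0% in experiment 1 and 62.9% in experiment 2. Of 13 genes of histone mRNA transcription and processing, among them Npat and Slbp, 7 were called in all 10 libraries, with a mean of 89.2% in each experiment. Of 15 histone chaperone genes 11 were called in all 10, with means of 85.3% and 90.7%. None of the genes of these 3 lists had an unadjusted p under 0.05 for early against later stages, of 6, 6 and 3 genes tested.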

How the data were processed

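The data were 20 deposited peak lists (values of chromosome, start and end only) from ChIP-Seq of sorted testis nuclei. The authors aligned reads to mm10 with BWA and called peaks per library with MACS2 2.1.2 (broad peaks), against stage-matched input. This is stated for H3K4me3, and for H3K9ac the control is not given in the sources used here. The submitters' processing notes also name deepTools 3.0.1. A gene was called where a peak overlapped 500 bp on either side of a TSS (GENCODE M21, chromosomes 1 to 19) by at least 1 bp. Per-gene exact permutation tests (two-sided, on calls) used Python 3.11.15, numpy 2.4.6 and scipy 1.17.1, with Benjamini-Hochberg adjustment over all 7692 genes with varying calls and a threshold of 0.05. With 2 against 8 libraries the smallest p was 0.0222, with 4 against 6 it was 0.00476. The functions were tested on simulated lists.

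The members and gene lists were chosen with earlier results of these data known. Genes were named by rule: testis and H1 genes, genes called in all H3K4me3 libraries or in no list, those at the smallest p, the widest of each class, and those outside the Hist1 cluster. Hist1h4b, Hist1h2an and Hist1h2bp, the 7 genes of the test by experiment and the genes of single calls were named after their values were seen. The alternatives were a 1000 bp window, a 250 bp overlap, equal list sizes, the wider peaks, leaving out each library, merged windows, members without shared sequence, a replicate block, width percentile and protein-coding transcripts. The comparison of experiments, the within-experiment values and the RefSeq starts were added after seeing the data.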

Additional observations from a re-analysis of the deposited data

How the results depend on the processing

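The counts of histone genes past the adjusted tests stayed at 0 under every alternative run, including the leave-one-out settings (range 0 to 0), with smallest adjusted p from 0.0911 (width percentile) to 0.549 for early against later stages and from 0.166 (width percentile) to 0.93 for leptonema. Leaving out a leptonema library leaves that test 1 against 8 libraries and 9 splits, too few for any gene to reach 0.05, so those 2 settings say nothing. The replicate block (permutation within experiments) gave 0 histone genes for both tests, with 346 genes at an unadjusted p under 0.05 in place of 546 for early against later stages, and the same share difference of 12.9 percentage points. For leptonema the block left 25 splits, against 45 without it. With so few, an adjusted p under 0.05 needed a large part of all genes at the smallest p, so the counts of 0 for leptonema show little. Over the 7692 genes with varying calls, the experiment numbers paired the libraries weakly. Deviations of same-numbered libraries correlated from -0.122 to 0.225 over 10 pairs of stages, with 2 over 0.1. That does not describe the histone genes, of which 42 had more calls in experiment 2 and 0 in experiment 1. The early-minus-later difference was -3.48 within experiment 1 and 29.4 within experiment 2, and ran from 1.99 (without leptonema of experiment 2) to 21.9 when each library was left out. The difference between experiments was 31.0 percentage points, 22.1 with a 250 bp overlap, 17.9 with the wider peaks, 14.9 with equal list sizes and 24.8 to 39.3 without each library. Testis minus rest, 32.7 points, ran from 29.1 to 36.7. Class shares ran from 3.70 to 9.26% (H1), 26.5 to 34.6% (H2A), 18.5 to 26.5% (H2B), 13.9 to 20.4% (H3) and 12.8 to 18.8% (H4) without each library. With equal list sizes they were 6.67%, 19.4%, 15.6%, 4.17% and 7.69%, and H2A stayed the highest. The median width percentile, 55.3, ran from 54.6 to 56.1. The H3K4me2/3 share of 57.9% was 39.7% with the wider peaks and 20.0% over the 8 genes that share no 50-base word with another member. The H3K9ac share of 14.3% was 10.1% with a 250 bp overlap and 10.1% with the wider peaks, 3.58% with lists cut to the 516 widest peaks and 5.00% over those 8 genes. Over the same 8, the H3K4me3 shares were 10.0% (H1), 5.00% (H2B), 0% (H3) and 0% (H4), with no H2A gene. The cause of these moves was not tested. Depth is not in the lists, so the precision of single calls is unknown.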
